A study of Mus musculus with 20 samples.

Results

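A set of 289 mouse genes carried edited sites in the cerebellum list of this series and none under the same symbol in the cortex or hippocampus lists. They were chosen by that absence alone, and they held 735 of the 25978 sites found in any list. In cerebellum they were 289 of 2228 genes with a site, 13.0%, and they held 6.45% of the 11391 cerebellar sites. The mice expressed APOBEC1-YTH or, as background control, APOBEC1-YTHmut, from transgenes induced by tamoxifen given at 20 mg/kg every 24 h for 5 days, with tissue frozen 7 days after the last dose. Whole cerebellum, whole cortex and whole hippocampus were each sampled from the same 4 APOBEC1-YTH animal numbers, and APOBEC1-YTHmut libraries numbered 3, 3 and 2 in that order. All animals, controls included, received tamoxifen; the sources used here do not state strain, age or the promoter of the transgene.

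APOBEC1-YTH joins a cytidine deaminase to the YTH domain, which binds N6-methyladenosine (m6A). Cytidines close to an m6A are deaminated and are then read as uridine in RNA-seq, so an edited cytidine stands for a methylated adenosine nearby. In transcripts m6A is known to concentrate in the last exons, around the stop codon and in the 3′ untranslated region, where it bears on RNA decay, translation and transport. In this text the editing level is the share of reads edited at a site, as 1 deposited value for the region, printed in percent. There is no value per animal and no read depth, so no level has a replicate error; an SD given below is the spread over the sites of 1 gene, and sites of 1 gene are not replicates.

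The cerebellum holds cell types that cortex and hippocampus lack. Purkinje cells, its output neurons, receive glutamate from granule cell axons, the parallel fibres. There metabotropic glutamate receptors activate phospholipase C, which makes inositol trisphosphate and releases calcium from internal stores. Bergmann glia, granule cells and inhibitory interneurons surround them. In bulk tissue fewer cells of a type and less RNA per cell cannot be told apart, and expression was not measured here. A gene without m6A in the forebrain and a gene too weakly expressed there to be called cannot be told apart.

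The sequence around a site could be read at 3 of the 735 sites, those that fall inside the RefSeq promoter windows of GRCm38.p6, the assembly of mm10. They are shown to make visible what an edited site is: the capitals mark the edited cytidine and the adenosine just before it, 5′ to 3′ on the strand of the transcript.
Kcng4, chr8:119632892-119632921, minus strand: agcaccatgcccgACttcagggctgaggag
Arhgef33, chr17:80373744-80373773, plus strand: ccttcttcccccaACagaggtcccaaagcg
Mrpl43, chr19:45005528-45005557, minus strand: gctaggtgcagtgACcttgtgaatacccta
The windows are those of other genes: Gm46055 at the Kcng4 site, Gm10190 at the Arhgef33 site and Twnk at the Mrpl43 site. The Kcng4 cytidine was edited at 7.41%, the Arhgef33 one at 2.30% and the Mrpl43 one at 2.60%. In each, A or G stands before the AC, the core of the m6A consensus. Over all 3 lists, 63 sites fell inside such a window, and 63 of 63 were a C with AAC or GAC ending at the edited base. Among all cytidines of these windows on both strands, 18.2% follow an A and 9.10% end an AAC or GAC. Whether the authors' caller required this context is not given in the sources used here.

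Site numbers were very unequal among the genes. A single site was listed for 193 of the 289 (66.8%), 2 to 4 sites for 68, 5 to 9 for 14 and 10 or more for 14. The last 14 genes, 4.84% of the 289, held 290 sites, 39.5% of the total. Among the cerebellar genes also listed in the forebrain, 31.3% had 1 site. In that set 15.2% had 10 or more sites and held 55.2% of the sites. The potassium channel subunit gene Kcng4 led with 47 sites, followed by Strip2 with 36 and Car8 with 30. The plot of sites by gene shows that levels could differ widely within 1 gene, in Kcng4 from 1.56% to 36.45%.

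**Figure D1:**
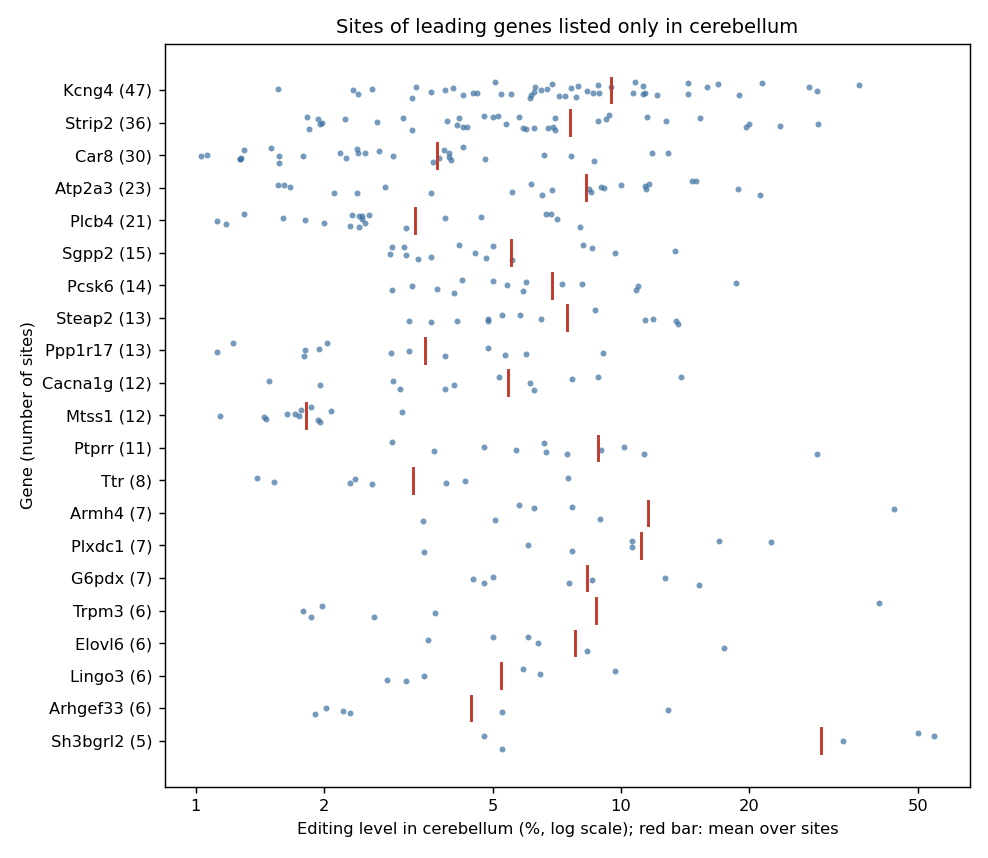
Editing level in cerebellum (x axis, percent, log scale) of each site (points) in 21 of the 24 genes with the most sites, with the number of sites after each gene name and the mean over sites as a red bar; points are jittered vertically. Kcng4 has a mean of 9.49% over 47 sites, Mtss1 stays between 1.14% and 3.06%, and Sh3bgrl2, Armh4 and Trpm3 each hold a site above 40%.

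By number of sites the largest functional group was that of glutamate receptors, phospholipase C and calcium handling. Its 11 genes were 3.81% of the 289 and held 145 of the 735 sites, 19.7%, and 10 of these 11 had 2 or more sites. Groups were assigned by hand and only to the 289 genes, so no share over all cerebellar genes can be set beside these. The order of groups depends on that choice: Car8 with 30 sites and the calcium channel gene Cacna1g with 12 were counted here, and the next group held 115 sites.

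Among enzymes and channels, Plcb4, the phospholipase C isoform of most Purkinje cells, had 21 sites packed into 1071 nt of chromosome 2 (136013037 to 136014107), of which 17 had another site within 50 nt. Its levels ran from 1.12% to 8% with a mean of 3.27% ± 2.11. Cacna1g, a T-type calcium channel gene, had 12 sites with a mean of 5.43% ± 3.48, and 2 of them, at 6.10% and 4.05%, lay more than 50 kb upstream of the others.

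Genes that act on the calcium store and on inositol lipids completed this group. Car8 encodes a carbonic anhydrase-related protein that binds the inositol trisphosphate receptor. It had 30 sites on chromosome 4 with a mean of 3.69% ± 3.03, and its highest sites were neighbours at 12.9% and 11.8%. Atp2a3, which encodes a pump that returns calcium to the endoplasmic reticulum, had 23 sites on chromosome 11 with a mean of 8.27% ± 5.56, and 8 of them reached 10%. Atp2a3 was thus edited at more than double the mean level of Car8 at fewer sites, a difference that pooled values do not allow to be tested. Casq2, a calcium-binding protein of the store, had sites at 5.56% and 9.38%. Inpp5e, an inositol polyphosphate phosphatase of primary cilia, had 4 sites with a mean of 7.16%, and Dagla, which makes an endocannabinoid from diacylglycerol, had 1 at 2.53%.

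Read as a pathway, these genes were a part and not the whole. Of 35 genes drawn up for metabotropic glutamate receptors, phospholipase C and the calcium store, 22 had a site in some region and 16 in cerebellum. Of these 16, 5 (31.2%) were listed only there, among them Plcb4, Car8 and Atp2a3, against 13.0% of all cerebellar genes. Itpr1, the inositol trisphosphate receptor gene, had 16 cerebellar sites but also 4 in cortex and 3 in hippocampus, and Gnaq, the G-protein subunit that couples such receptors to the enzyme, had 6, 8 and 8. Calcium pumps, exchangers and buffers as a class gave 1 of 10, Atp2a3 alone.

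Close relatives of the leading genes were listed in different ways. Plcb1 had 0 sites in cerebellum, 19 in cortex and 10 in hippocampus, where Plcb4 had 21, 0 and 0. Atp2a2 had 31, 15 and 16 sites beside the 23, 0 and 0 of Atp2a3, and Sv2b had 11, 31 and 38 beside the 5, 0 and 0 of Sv2c. In Mtss1 and Mtss2, and in the glycine transporter genes Slc6a9 and Slc6a5, both relatives were listed only in cerebellum. These pairs were picked after the values had been seen.

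Kcng4 had the most sites of all 289 genes. It encodes a silent subunit that joins other voltage-gated potassium channel subunits and changes their gating. Of its 47 sites on chromosome 8 (119624040 to 119632907, minus strand), 46 lay within 3000 nt of the one nearest the 3′ end, and 43 had a neighbour within 50 nt. Levels of 10% or more were reached at 15 sites, the highest being 36.45% at position 119625341, 28.95% at 119624935 and 27.7% at 119625506. A site 4 nt from the highest one was edited at 3.57%, so sites a few nt apart could differ widely. The genes nearest to Kcng4 in both rank of site number and rank of mean level among named genes were Atp2a3, Ptprr and G6pdx. Of the other ion channel genes, Trpm3 had 6 sites, Kcnk9 1 at 2.86% and Kcnj9, a G-protein-gated inward rectifier, 1 at 1.6%. Potassium channel genes as a family did not stand out. Of the 24 listed in cerebellum 3 (12.5%) were listed only there, beside 13.0% of all cerebellar genes.

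**Figure D2:**
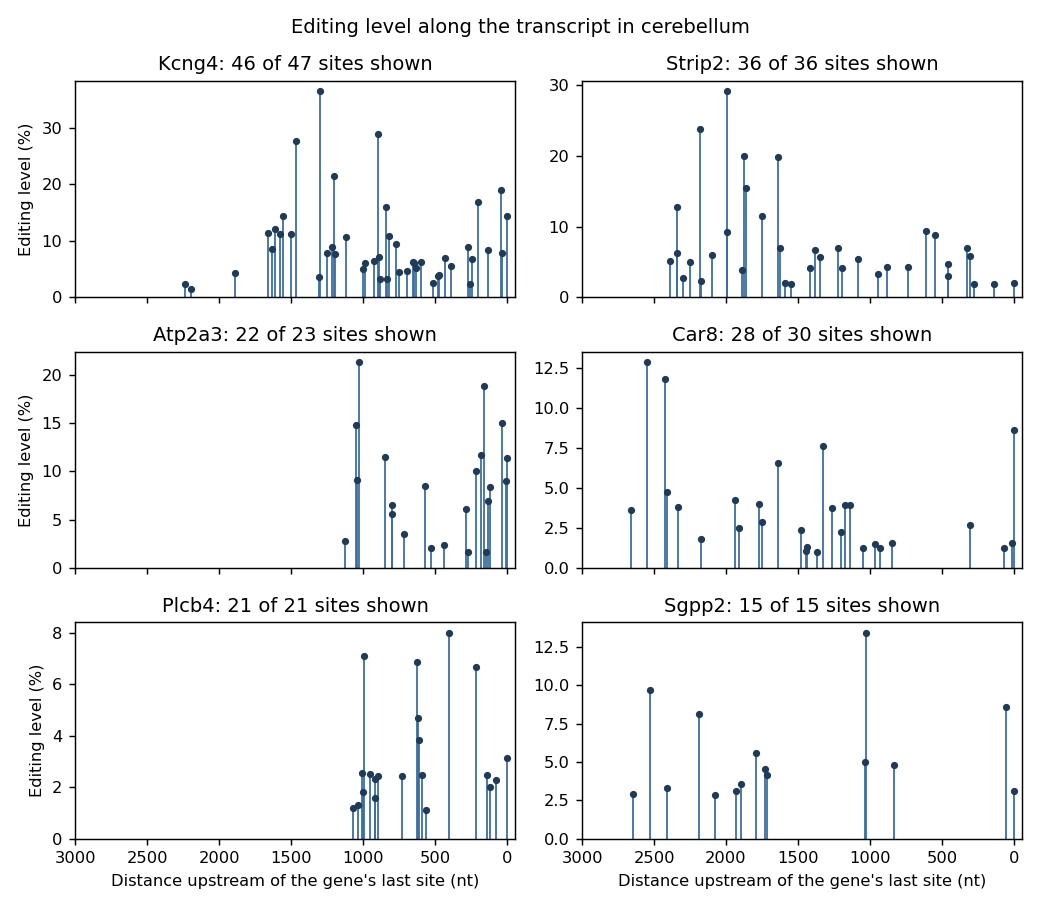
Editing level (y axis, percent, separate scale for each gene) against the distance upstream of the gene's last listed site (x axis, nt along the genome) for 6 genes; each line with a point is 1 site, and sites over 3000 nt away are not drawn. Sites of different level lie side by side, with the highest at 36.45% in Kcng4 and 29.1% in Strip2.

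Kinase, phosphatase and receptor signalling genes formed the group with the most genes, 39, with 115 sites. Strip2 belongs to the complex of striatins with kinases and phosphatase 2A. It had 36 sites in 2392 nt of chromosome 6 (29956991 to 29959382), with a mean of 7.59% ± 6.51 and a peak of 29.1%. Mob4, of the same complex, had 1 site at 6.12%. Ppp1r17, known as G-substrate, is a phosphatase inhibitor of Purkinje cells. Its 13 sites had a mean of 3.47% ± 2.32. Ptprr, a receptor-type tyrosine phosphatase gene, had 11 sites in 542 nt of chromosome 10 with a peak of 28.9%, and its remaining sites lay between 2.90% and 11.4%.

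The other members of this group had 4 sites or fewer. The adaptor genes Bcar1 and Crkl had 4 sites at 1.61 to 3.42% and 3 at 3.57 to 28.1%. Pde5a, the cGMP phosphodiesterase gene, had 3 at 4.76 to 6.67%. Gng13, a G-protein subunit gene and Purkinje cell marker, had sites at 1.45% and 2.40%. A single site was listed for 24 of the 39, including the GTPase gene Nras at 10.9%, the Hippo kinase gene Lats1 at 5.13% and the kinase gene Mast1 at 1.29%.

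Lipid, membrane and metabolic genes included some with many sites. Sgpp2, which dephosphorylates sphingosine-1-phosphate, had 15 sites on chromosome 1 between 2.86% and 13.4%, spread so that only 6 had a neighbour within 50 nt. Of 3 sphingolipid enzyme genes in the cerebellum list, Sgpp2 alone was absent from the forebrain lists. So few genes cannot be set apart from the 13.0% of all cerebellar genes. The fatty acid elongase gene Elovl6 had 6 sites with a peak of 17.5%, the sterol enzyme gene Sc5d 2 and the citrate lyase gene Acly 2. G6pdx, the entry enzyme of the pentose phosphate pathway, had 7 sites within 454 nt of the X chromosome, at 4.48 to 15.25%. The metalloreductase gene Steap2 had 13 sites with a mean of 7.49% ± 3.86. Among the 25 genes of other metabolism, mitochondria and peroxisomes 20 had 1 site, and several of these were low, such as Mdh1 at 1.64% and the ATP synthase gene Atp5g3 at 1.08%.

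Cytoskeletal and small GTPase genes had a low median with high exceptions. Their 28 genes held 55 sites with a median of 2.35%, beside 4.08% over all 735. Mtss1, which bends membranes and regulates actin in dendrites, had 12 sites between 1.14% and 3.06% with a mean of 1.82% ± 0.47, the narrowest range of the 14 genes with 10 or more sites. Washc2, of the endosomal WASH complex, had 5 between 1% and 2.44%, and these 2 genes weigh on the median. At the other end stood Eps8 at 69.1%, Sestd1 with a site at 43.6%, Arhgef33 with 1 at 12.9% and Ttll5 with 1 at 12.2%. Kndc1, a Ras exchange factor gene of neurons, had 1 at 1.45%. By gene symbol, 8 of 77 genes for small GTPases and their regulators (10.4%) were listed only in cerebellum, beside 13.0% of all cerebellar genes. Of 60 motor and cytoskeleton genes 4 (6.67%) were.

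Secreted and adhesion genes numbered 25 with 68 sites. Pcsk6, a proprotein convertase gene, had 14 sites in 938 nt of chromosome 7 with a mean of 6.87% ± 4.24. Plxdc1 had 7 sites, of which 4 reached 10%, at 22.6%, 17.1%, 10.6%, 6.06%, 7.69%, 10.6% and 3.45% from the 3′ end inwards. Gdf10, a TGF-beta family ligand gene of Bergmann glia, had 4 sites, of which 1 reached 13.2% and the others 2.38 to 4.76%. The collagen genes Col1a2, Col1a1 and Col18a1 had 5, 1 and 1 sites, with Col1a1 at 11.8%. Adhesion, guidance and matrix genes as a family gave 3 of 41 (7.32%), which are these collagens, beside 13.0% of all cerebellar genes. That family goes by gene symbol and is not the group of 25 genes, which was assigned by hand.

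Transcription factor genes had few sites each. Hes3, a basic helix-loop-helix repressor gene, had 3 at 15.6%, 9.52% and 4.65%. The clock repressor gene Nr1d2 had 2, and Zic1, the zinc finger factor of granule cells, had 2 at 1.33% and 1.73%. Of 25 homeobox, forkhead and similar factor genes in the cerebellum list 7 (28.0%) were listed only there, and 4 of 19 zinc finger genes (21.1%). The share over all cerebellar genes was 13.0%, and over those with 1 site 24.2%. Most of these factor genes had 1 site: only Hes3, Nr1d2, Zic1 and Zfp385a had more. Solute carriers gave 12 of 56 (21.4%), with at most 3 sites in any gene. Slc6a5, the glycine transporter gene of inhibitory interneurons, had 2 at 2.35% and 4.65%, and Slc12a2, the chloride importer gene, 1 at 5.77%. No GABA or glycine receptor gene (0 of 8) and no sodium channel gene (0 of 5) in the cerebellum list was absent from the forebrain lists. Families this small do not set 0 apart from 13.0%.

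Markers of the cell types that cerebellum can hold were counted in the same way. The share over all cerebellar genes was 13.0%. Of 30 Purkinje cell markers 21 had a site, all 21 of them in cerebellum, and 10 (47.6%) were listed only there. Those 10 held 197 of the 397 cerebellar sites of the markers. The remaining 11 had at least 1 forebrain site, such as Rora with 37 in cerebellum and 5 in cortex. No site in any region was listed for 9 of the 30, including Pcp2 and Slc1a6. Of 14 astrocyte and Bergmann glia markers 12 were listed in cerebellum and 5 (41.7%) only there. These were Gdf10 with 4 sites and, with 1 each, Dao (36.2%), the D-amino acid oxidase gene, Timp4 (8%), a metalloproteinase inhibitor gene, Hopx (4.88%) and the fatty acid-binding protein gene Fabp7 (2.14%), 8 of the 174 sites of that list. Marker lists are drawn from knowledge of expression and were put together with results of these data known, so the shares describe these lists and nothing more. Of 5 markers of inhibitory interneurons in the cerebellum list 1, Slc6a5, was listed only there.

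Granule cells are the most numerous neurons of the cerebellum. Of 23 granule cell markers 4 were in the cerebellum list with 6 sites in all, beside 21 of 30 Purkinje cell markers. The share of all annotated genes in the cerebellum list was not measured, so 4 of 23 is not shown to be low. Of the 4 granule cell markers 1, Zic1, was listed only there, and so few genes cannot be set apart from the 13.0% of all cerebellar genes. Of the 23, 14 had no site in any region, including Gabra6, Cbln1, Cbln3, Fat2 and Neurod1. Zic1 was also the single gene with a site among 30 factors of hindbrain and cerebellar patterning. All 3 unipolar brush cell markers listed in cerebellum, Plcb4 among them, are also on the Purkinje cell list, so the lists do not separate these cells. Oligodendrocyte markers (0 of 5), endothelial and pericyte markers (0 of 3) and forebrain neuron markers (0 of 2) gave no gene, and no microglial marker was listed in cerebellum. With so few genes, a count of 0 cannot be set apart from the 13.0% of all cerebellar genes. These counts hold for the lists alone. Nkx6-2, a homeobox gene of oligodendrocytes, and Mcam, an adhesion gene of vessels, are not on them. Both were listed only in cerebellum, with 1 site each, at 57.9% and 34.0%.

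Choroid plexus markers came up beside the neuronal genes. Ttr, the thyroid hormone carrier of choroid plexus, had 8 sites in 379 nt at 1.39 to 7.53%, and Kl, which encodes klotho, had 1 at 23.3%. Enpp2 had 11 sites in cerebellum, 2 in cortex and 1 in hippocampus. The other 5 of the 8 markers, Folr1, Clic6, Otx2, Prlr and Aqp1, had no site in any list. The part of choroid plexus or meningeal RNA in the cerebellum list was not tested.

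**Figure D3:**
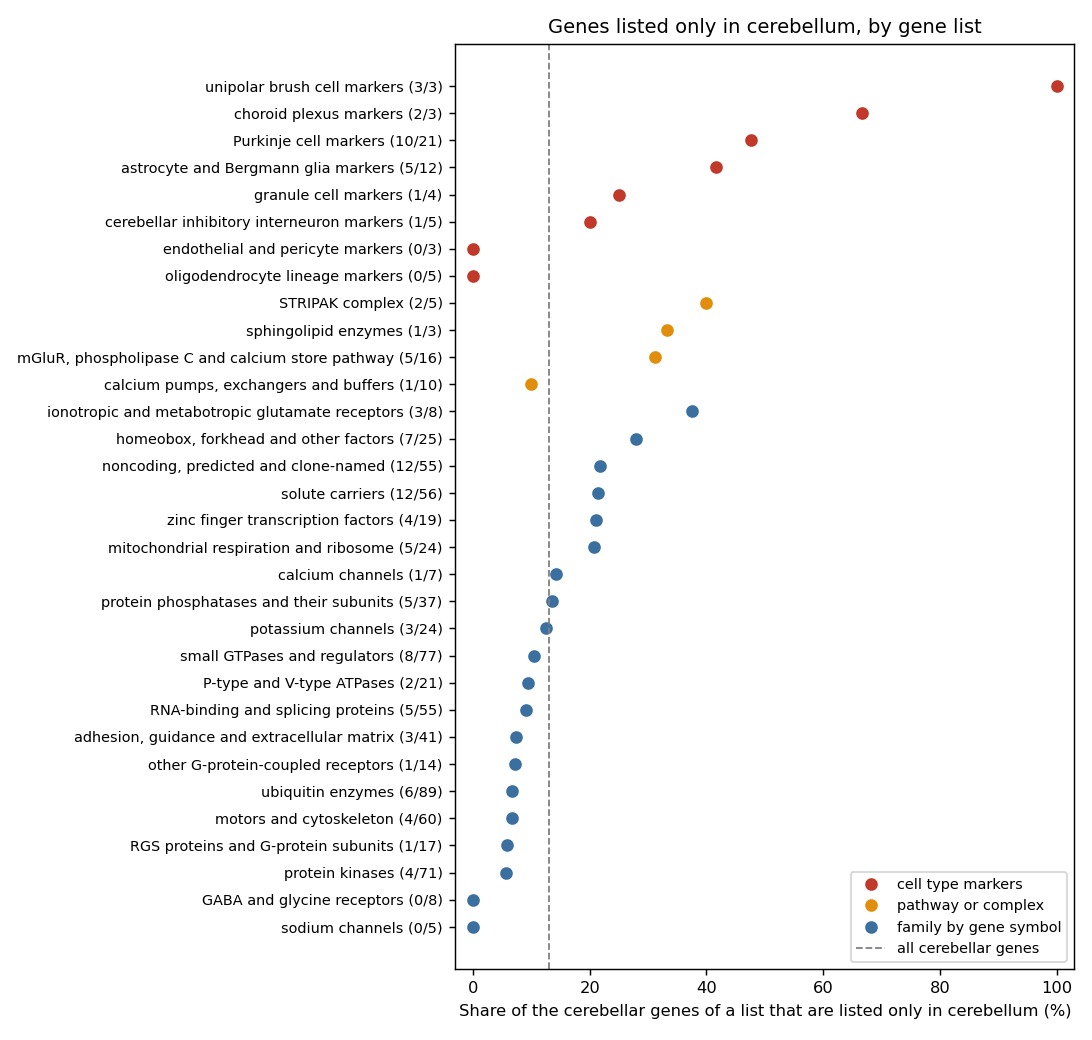
Share of a list's cerebellar genes that were listed only in cerebellum (x axis, percent), for each list with at least 3 genes in cerebellum; counts follow each name, and the dashed line is 13.0%, the share over all cerebellar genes. Purkinje cell markers stand at 47.6% and astrocyte and Bergmann glia markers at 41.7%, while protein kinases (5.63%) and ubiquitin enzymes (6.74%) lie to the left of the line.

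The share of genes listed only in cerebellum differed with the number of sites. Of the 799 cerebellar genes with 1 site 24.2% were listed only in cerebellum, against 8.92% of those with 2 to 4, 3.90% with 5 to 9 and 4.55% with 10 or more. Site numbers come from the same list as the rule, so these shares were not tested. The same rule gave 648 genes for cortex, 20.5% of its genes, and 195 for hippocampus, 7.66%, and 73.8% and 87.2% of these had 1 site. Genes with 10 or more sites were 14 of 289 in cerebellum, 4 of 648 in cortex and 1 of 195 in hippocampus. The regions' lists differ in length and their depth is unknown, so these numbers do not rank the regions.

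Genes just outside the rule show how close its edge lies. In cerebellum 215 genes had exactly 1 site in cortex and hippocampus together, where a site listed in both regions is counted in each. At 133 of them that site was at the same nucleotide as a cerebellar one. Calb1, which encodes the Purkinje cell calcium buffer calbindin, had 45 cerebellar sites at a mean of 3.97% and was left out by 1 cortical site at 1.10%. Shisa6, an AMPA receptor auxiliary subunit gene, had 30 sites and 1 in hippocampus at 3.57%. The kinase gene Sbk1 had 26, the methyltransferase gene Icmt 18, the atlastin gene Atl2 12, Kcnip4 and Ppp1r16b 10 each, and the glutamate transporter gene Slc17a6 had 9. Each of these 8 genes had its forebrain site at a nucleotide that was also listed in cerebellum. On the inner side, Kcng4 and Strip2 had comparable site numbers and 0 in the forebrain.

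**Figure D4:**
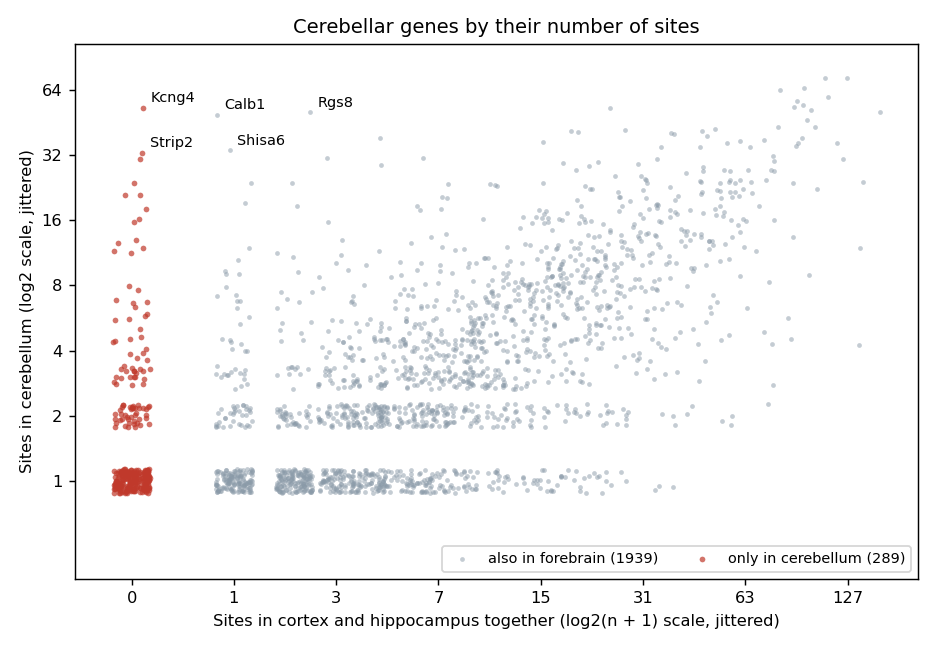
Number of cerebellar sites (y axis, log2 scale) against the number of sites in cortex and hippocampus together (x axis, log2 of the number plus 1) for the 2228 cerebellar genes; points are jittered. A site listed in both cortex and hippocampus is counted in each. The 289 genes at 0 on the x axis are drawn in red, most of them at 1 cerebellar site, and Calb1 and Shisa6 lie 1 forebrain site away.

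Forebrain sites near these genes under another symbol were rare. No site of the 289 genes had a cortical or hippocampal site within 50 nt on either strand, and 1 had one within 500 nt on its own strand. For 5 genes, among them Ccnl2, Dbndd2, Fam160b2 and Irf2bp1, a forebrain site on the same strand lay within the gene span or 5 kb of it, listed under a neighbouring gene and at least 1248 nt from the cerebellar site. None of these 5 had more than 1 site, and none held the site with a forebrain site within 500 nt. The 6 genes without a RefSeq match have no gene span, so this check did not cover them.

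Levels were higher per site, but over all genes not per gene. The 735 sites had a median of 4.08% (quartiles 2.54% and 6.88%), and the 10656 sites of cerebellar genes also listed in the forebrain had 3.32% (2.10% and 5.52%). Levels of 10% or more were reached by 102 of the 735 (13.9%), beside 8.99% of all cerebellar sites. With 1 mean per gene, the median was 4% in both sets. Split by site number, the medians were 3.92% and 4.27% in genes with 1 site, 3.91% and 3.41% with 2 to 4, 5.22% and 3.23% with 5 to 9, and 4.52% and 3.23% with 10 or more, the genes of cerebellum alone first. The medians of gene means were 8.07% and 3.97% with 5 to 9 sites, and 5.84% and 3.90% with 10 or more. The gap was thus widest in the 28 genes with 5 or more sites, and at 1 site the order was turned. Without sites at 35% or more, the medians at 1 site were nearly equal, 3.77% and 3.82%. Levels come from the same list as the rule and from 1 pooled value a site, so the difference was not tested.

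**Figure D5:**
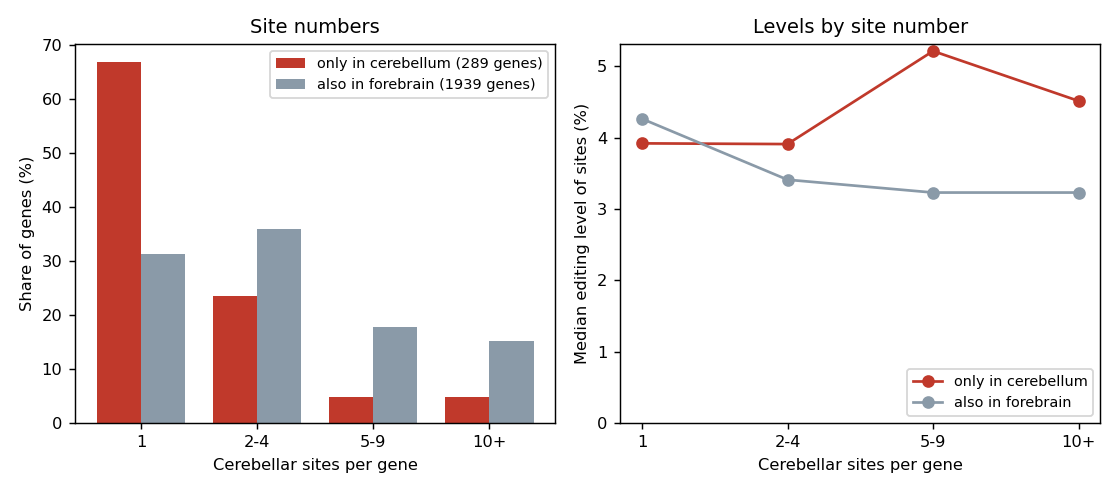
Left, share of genes (y axis, percent) by number of cerebellar sites per gene for the 289 genes listed only in cerebellum and the 1939 also listed in the forebrain; right, median editing level of their sites (y axis, percent) in the same classes. Genes with 1 site make up 66.8% of the first set, and its medians are above the others from 2 sites per gene upwards.

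A small number of sites had very high listed levels. Read depth is not given and the sequence around these sites could not be read, so whether they stand for m6A was not tested. In 17 genes 18 sites reached 35%, 2.45% of the 735 beside 1.48% of all cerebellar sites, and 8 of these sites were the only one in their gene. Within classes of site number the order varied. The share was 4.15% against 10.7% in the other cerebellar genes at 1 site, 2.38% against 2.39% at 2 to 4, 5.95% against 0.828% at 5 to 9, and 0.345% against 0.374% at 10 or more. The mitochondrial isoleucyl-tRNA synthetase gene Iars2 had the highest level, 94.3% (chromosome 1, position 185289443), then the actin-capping protein gene Eps8 (69.1%), the predicted gene Gm33320 (60%), Ankle2 (58.1%), Nkx6-2, a homeobox gene of oligodendrocytes (57.9%), Mcmbp (55.3%), and Zfp383 and Sh3bgrl2 (54.5% each). Another site of the gene within 50 nt was found for 1 of the 18 (5.56%), and for 281 of all 735 (38.2%). Sites at 35% or more in the other cerebellar genes were alike in this, with 11 of 151 (7.28%). The 8 sites that were the only one in their gene cannot have a neighbour.

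In several genes with more sites, such a site was the only one at a high level. Sv2c, a synaptic vesicle protein gene, had 1 site at 50% and 4 at 3.77 to 7.14%. Fam107b had 47.4% beside 3 sites at 2.82 to 2.86%, and Trpm3 40.4% beside 5 at 1.79 to 3.66%. In Armh4 the site at 44% lay 92101 nt upstream of the 3′ end, far from the other 6, which were at 3.42 to 8.93%. Sh3bgrl2 differed, with 3 of its 5 sites high (54.5%, 50% and 33.3%), and so did Kcng4, where 15 of 47 sites reached 10%. The centrosome gene Cep350 paired 48.9% with 5%, Sestd1 43.6% with 4.26% and the kinase gene Stk17b 37.5% with 2.25%. Without the sites at 35% or more, the median of the remaining 717 sites was 4.08%.

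Along the genes, sites lay near the 3′ end. The median distance to the annotated 3′ end was 1052 nt along the genome over 725 sites in genes matched to RefSeq, beside 1380 nt for the other cerebellar genes. Within gene spans, 89.5% and 89.2% of sites lay no more than 5 kb from that end. A neighbour within 50 nt was found for 38.2% of the sites, beside 54.3% in the other genes. By class these shares were 27.4% and 33.6% in genes with 2 to 4 sites, 42.9% and 48.4% with 5 to 9, and 68.6% and 68.8% with 10 or more. Genes with 1 site cannot have a neighbour. In Sv2c 4 of 5 sites lay beyond the annotated end. Exons, introns and untranslated regions were not analysed here.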

How the data were processed

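Poly(A) RNA-seq libraries (20, made with a directional kit, per the labels' protocols) were aligned with STAR 2.7.5, and mm10 was the build, per the submitters' processing notes. APOBEC1-YTHmut libraries served as background for the site calls, per the labels. The caller is not given in the sources used here, nor are its thresholds or any pooling. The authors deposited 1 list per region whose value per site is a fraction, read here as the edited share of reads in the pooled APOBEC1-YTH libraries. That reading is an assumption, and depth is unknown.

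Genes were matched by symbol between lists. RefSeq GRCm38.p6 matched 282 of the 289 genes by symbol and 1 by synonym. Functional groups were assigned by hand, with 10 genes not grouped, and families by symbol pattern. Members and lists were chosen with earlier results of these data known. Genes were named if they ranked among the 24 richest in sites or the 12 highest in level, if a marker or pathway list held them, as up to 4 per family, or as the 8 nearest genes outside the rule; others were named after their values had been seen. Some genes under this rule are not reported here. No test was made, since listing, site number and level come from the same pooled lists. The rule and the merging of sites were tested on simulated data. Tables were made with pandas 2.3.3 and numpy 2.4.6 under Python 3.11.15, and figures with matplotlib 3.10.9.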

Additional observations from a re-analysis of the deposited data

How the results depend on the processing

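No paired analysis was possible because each region was deposited as 1 pooled list without values per animal, and for the same reason no replicate could be left out. Merging of sites within 10 nt (684 sites) kept the 289 genes. Removal of genes with a forebrain site in the gene span or 5 kb of it kept 284, and genes without a RefSeq match could not be checked. Symbols from RefSeq gave 289 genes, 288 of them under the same symbol, and without sites at 35% or more in any list there were 285, of which 281 were among the 289. A minimum level in every list changed which genes were listed only in cerebellum: at 5% there were 346 genes, of which 133 were among the 289, with a median level of 6.94%, and at 10% there were 229 genes, 58 of them among the 289, with 341 sites, a median of 12.5% and 77.3% of genes with 1 site. Requiring 2 cerebellar sites left 96 genes and, by construction, 0% with 1 site. Requiring 2 sites in any region gave 208 genes, 96 of them among the 289, with 1072 sites, a median of 3.91% and again 0% with 1 site. With 1 value a gene the median distance to the 3′ end was 836 nt. All 24 leading genes kept their site number within 1.5 times after merging. Depth is unknown, so a gene absent from a forebrain list is not shown to lack m6A there.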

Other observations

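Some genes with few sites were picked after their values had been seen. Ppp1r1b, which encodes DARPP-32 of striatal neurons, had 3 sites at 2.13%, 1.06% and 3.03%. The neuropeptide genes Cck and Penk had 1 site each, at 1.94% and 2.48%.

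RNA processing and translation genes had 1 site in 15 of 16 genes and ubiquitin, chaperone and turnover genes in 17 of 27, beside 66.8% of all 289. Other genes with 1 site were Atf6 (6%) and Xbp1 (2.08%), which encode factors of the unfolded protein response, the Argonaute gene Ago1 (11.3%) and the creatine kinase gene Ckb (1.78%). The paired genes Ndfip1 and Ndfip2, adaptors of ubiquitin ligases, had 1 site at 1.94% and 2 at 2.78 and 3.82%. Of the 13 noncoding, predicted and clone-named transcripts 12 had 1 site, at 60% in Gm33320 and at 5.56% and 3.23% in the microRNA host transcripts Mir100hg and Mir9-3hg.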
